A study of Mus musculus with 19 samples.

Results

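The nucleus accumbens is a forebrain region of reward and motivation, and its mature miRNAs were measured on 7 of the 19 arrays of the series. High-active mice were C57L/J (4 mice, numbered 223, 224, 225 and 227) and low-active mice were C3H/HeJ (3 mice, numbered 194, 195 and 197), both inbred strains. All were male by the published methods. They were 8 weeks old at the start, lived alone with a locked running wheel for 1 week, received no treatment and were killed at 9 weeks. No running was recorded on these wheels, so strain and activity cannot be told apart. Each mouse gave 1 array of total RNA from a whole tissue piece, in which fewer cells of a type and less RNA per cell cannot be told apart. The remaining arrays, 6 of the soleus and 6 of the extensor digitorum longus (EDL), enter only where the accumbens is compared with muscle. The low-active soleus arrays came from mice 194 and 195 alone, and the high-active EDL arrays from mice 225 and 227 alone.

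MicroRNAs are short RNAs cut from hairpin precursors, which can give a 5p and a 3p mature arm. They repress mRNAs mainly through their seed, bases 2 to 8, so miRNAs with a common seed are grouped as a family. Neurons are rich in miR-124, miR-9 and miR-128, and the imprinted domain Dlk1-Dio3 gives rise to many further brain miRNAs from the maternal chromosome. The comparison asks which of these miRNAs differ between an inbred strain labelled high-active and one labelled low-active.

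The mature sequences below are those of RefSeq (assembly GRCm38.p6), with the seed in capitals. The first set holds the miRNAs past the test outside miR-342 and the miR-669, miR-467, miR-466 and miR-297 families for which the table has a sequence, with miR-7b-3p, which has the seed of miR-7a-2-3p.
miR-760-3p: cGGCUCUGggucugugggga
miR-5103: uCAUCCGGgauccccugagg
miR-134-5p: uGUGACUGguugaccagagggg
miR-7a-2-3p: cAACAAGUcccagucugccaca
miR-7b-3p: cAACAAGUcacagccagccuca
The next set holds miR-338-3p, which lay just outside the threshold, and miRNAs with shared seeds that did not pass the test. The latter are the 5p arms of miR-7 and part of the miR-15/16 family, whose seed miR-15b-5p and miR-322-5p also carry.
miR-338-3p: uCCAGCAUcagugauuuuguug
miR-7a-5p: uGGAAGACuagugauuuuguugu
miR-7b-5p: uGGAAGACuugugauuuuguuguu
miR-15a-5p: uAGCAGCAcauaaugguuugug
miR-16-5p: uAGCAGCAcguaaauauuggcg
miR-195a-5p: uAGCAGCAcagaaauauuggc
The last set holds miRNAs rich in G and C that lay lower in high-active mice, and is shown for the pattern of base composition described further on.
miR-326-3p: cCUCUGGGcccuuccuccagu
miR-330-5p: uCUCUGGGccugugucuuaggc
miR-370-3p: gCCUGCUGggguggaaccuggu
miR-298-5p: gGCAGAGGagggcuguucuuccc
miR-296-5p: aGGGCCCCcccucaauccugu

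Of 1079 mouse miRNAs on the array, each high-active array detected 347 to 381 and each low-active array 351 to 388. Signals are processed spot intensities averaged per miRNA, scaled to each array's 75th percentile, floored at 6.19 units (2.63 on the log2 scale) and taken to log2. A difference is always high-active minus low-active on that scale, and brightness was not compared between miRNAs as an amount. Some markers followed the tissue label: miR-124-3p was detected on 7 of 7 accumbens arrays and on none of 6 soleus and 6 EDL arrays. The muscle miRNAs miR-499-5p and miR-208b-3p were detected on 0 of 7 accumbens arrays and miR-206-3p on 1. Other markers were detected in all 3 tissues. The muscle miRNAs miR-1a-3p and miR-133a-3p were detected on 7 of 7 accumbens arrays. The neuronal miR-128-3p was detected on 6 of 6 soleus and 6 of 6 EDL arrays. Arrays correlated at 0.883 to 0.992 across the miRNAs tested, a description over 386 miRNAs. The array of high-active mouse 224 was closer to those of low-active mice 194 and 195 (0.973 and 0.976) than to the other high-active arrays (0.928 to 0.945). Likewise, the array of low-active mouse 197 was closer to those of high-active mice 223, 225 and 227 (0.967 to 0.976). With low-active mice 194 and 195 it correlated at 0.929 and 0.930. Mice 224 and 197 also differed from the rest of their strains in the miR-200 and miR-183 miRNAs, whose values are given with the markers of other cells. The arrays lay on 3 slides. Mice 223, 224, 227 and 197 shared a slide, mice 225 and 195 shared another, and mouse 194 was the only accumbens array on the last.

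Few miRNAs of the nucleus accumbens passed the test between the strains, and most of those that passed were lower in high-active mice. With 4 against 3 arrays, not passing does not show that a miRNA was equal. The split changed with the processing, to 3 higher and 1 lower without scaling and to 5 and 5 without mouse 197. In limma 17 of 386 miRNAs tested passed (4.4%), 4 with the higher signal in high-active mice (1.04%) and 13 with the higher signal in low-active mice (3.37%), and 15 changed by 2-fold or more (3.89%). Of these 17, 7 were detected on arrays of 1 strain alone and met the filter of 3 arrays only through the strain where they were brighter, so their calls follow in part from that filter (11 tested miRNAs were of this kind), while 10 calls were detected in both strains. Both arms of miR-342 were among those higher, and 8 of 18 tested members of the miR-669, miR-467, miR-466 and miR-297 families were among those lower. That left miR-376c-3p and miR-5117-5p higher, and miR-760-3p, miR-874-3p, miR-7a-2-3p, miR-5103 and miR-134-5p lower. The strains did not overlap for 76 miRNAs (19.7%), 28 of them higher and 48 lower in high-active mice, and 78 (20.2%) had an unadjusted p under 0.05.

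**Figure D1:**
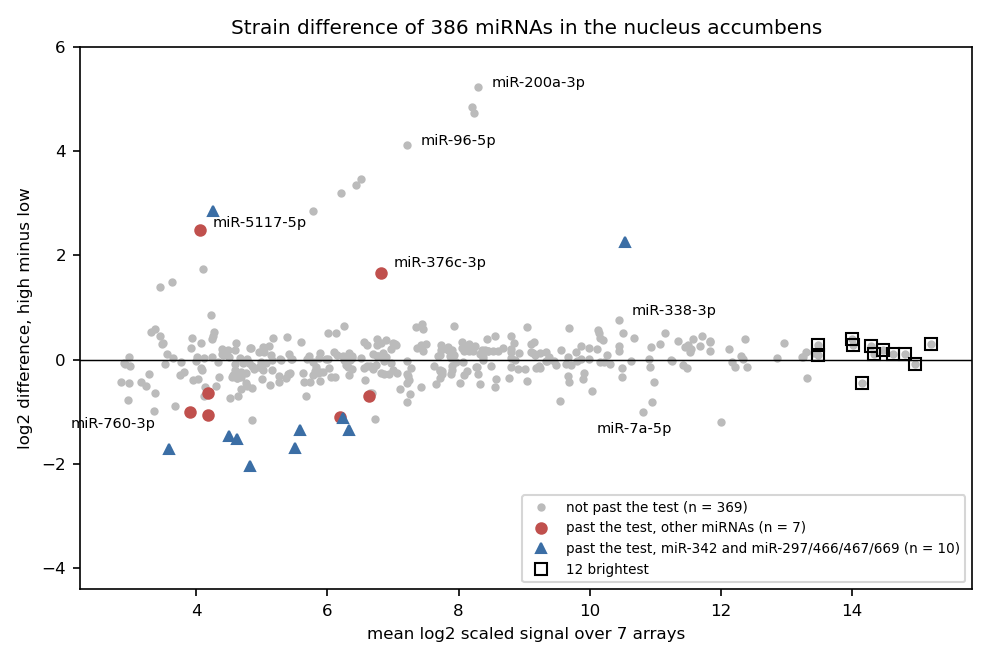
Log2 difference (high minus low) of 386 miRNAs against their mean log2 scaled signal over 7 arrays, with those past the test coloured and the 12 brightest boxed. The 12 brightest all lie within 0.45 of 0, the miRNAs past the test other than miR-342-3p have a mean log2 signal under 7, and the miR-200 and miR-96 points far above 0 did not pass.

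miR-376c-3p, a member of the Dlk1-Dio3 domain (Mir376c, GRCm38 chr12:109722718-109722803, plus strand), was higher in high-active mice. Its log2 signal was 7.78, 7.45, 7.39 and 7.51 in high-active mice 223, 224, 225 and 227, and 5.88, 5.84 and 5.86 in low-active mice 194, 195 and 197. Every high-active array was above every low-active one, by more than the spread within either strain. The strains differed by 1.67 (standard error, SE, 0.133, limma adjusted p = 2.49e-04), and all 4 of its probes had the same direction. On the slide of mice 225 and 195 alone the gap was 1.55, and on the slide of mice 223, 224, 227 and 197 it was 1.72. The scanner software's own signal for this miRNA gave the opposite direction, -1.04 (adjusted p = 0.00671). That signal equalled the sum of the miRNA's probe totals on all 4 high-active arrays, but was 6.08 to 6.77 times that sum on the 3 low-active arrays.

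miR-5117-5p was detected on all 4 high-active arrays and on no low-active array. Its log2 signal was 5.99, 4.81, 4.21 and 5.47 in high-active mice, and at the floor of 2.63 in all 3 low-active mice. The level in high-active mice was at least 5.23-fold higher (adjusted p = 0.00796). It entered the test only through the high-active arrays, so this p is no independent support, and with no filter it was 0.127. Only 1 of its 2 probes was detected. The call held under 13 of 20 alternatives. It was lost, among others, with the normexp background (0.22, adjusted p = 0.505), with a floor 2 times as high (1.49, adjusted p = 0.122), when its brightest probe alone was read, where the difference was 1.32 (adjusted p = 0.0787), and on leaving out mouse 194 (adjusted p = 0.0596) or mouse 195 (adjusted p = 0.0619).

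miR-760-3p (Mir760, chr3:122293585-122293703, minus strand) was lower in high-active mice. Its log2 signal was 3.54, 3.85, 4.02 and 3.50 in high-active mice against 4.76, 4.90 and 4.70 in low-active mice, with no overlap, and 3 of 4 high-active arrays detected it. The difference was -1.06 (SE 0.165, adjusted p = 0.00796). The call held under 13 of 22 alternatives. It was lost without mouse 194 (adjusted p = 0.0596) or mouse 195 (adjusted p = 0.0776), with slide as a block (adjusted p = 0.0629) and with scaling over all miRNAs (adjusted p = 0.0598), and the normexp background took the difference to -0.27 (adjusted p = 0.423).

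miR-874-3p, from a hairpin within the annotated span of Klhl3 (Mir874, chr13:58023125-58023200, minus strand), was detected on every array. The log2 signal was 6.24, 6.34, 6.32 and 6.46 in high-active mice and 7.02, 7.22 and 6.90 in low-active mice. The strains did not overlap, at a difference of -0.70 (SE 0.129, adjusted p = 0.0207). The gap was -0.89 on the slide of mice 225 and 195 and -0.55 on that of mice 223, 224, 227 and 197. The call held under 11 of 22 alternatives: with slide as a block the adjusted p was 0.213, and it also missed the threshold without any of mice 223, 225, 194, 195 and 197 (adjusted p 0.0522 to 0.143).

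miR-7a-2-3p is the 3p arm of one of the hairpins of miR-7, a miRNA known to repress alpha-synuclein and to bind the circular RNA Cdr1as (Mir7-2, chr7:78888277-78888373, plus strand). Its log2 signal was 5.85, 5.83, 5.98 and 5.22 in high-active mice and 6.92, 6.58 and 6.93 in low-active mice, again with no overlap. The difference was -1.09 (SE 0.209, adjusted p = 0.0255). With mouse 223, 194, 195 or 197 left out the adjusted p was 0.0618 to 0.163, and with slide as a block it was 0.213. The call held under 12 of 25 alternatives, and was also lost with quantile normalization (adjusted p = 0.067), with scaling over all miRNAs (adjusted p = 0.0879), without scaling (adjusted p = 0.331) and without a filter (adjusted p = 0.183).

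The 5p arms of miR-7, which carry the seed through which miR-7 acts, lay lower in high-active mice without passing the test. miR-7a-5p had log2 signals of 10.75, 10.69, 10.44 and 9.63 in high-active mice against 11.36, 11.12 and 11.67 in low-active mice, a difference of -1.004 (adjusted p = 0.113). miR-7b-5p, from another chromosome (Mir7b, chr17:56242988-56243098), had 9.48, 9.45, 9.10 and 8.79 against 9.79, 9.88 and 10.30, a difference of -0.78 (adjusted p = 0.0941). Neither overlapped between strains. miR-7b-3p, with the same seed as miR-7a-2-3p, differed by 0.10 (adjusted p = 0.857) and overlapped, and miR-7a-1-3p by 0.19 (adjusted p = 0.491). miR-375-3p, which is best known from pancreatic islets and pituitary, shared the list with miR-7 and had -1.15 (adjusted p = 0.055), with detection on 2 of 4 high-active and 3 of 3 low-active arrays.

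miR-5103 and miR-134-5p stood just inside the threshold. miR-5103 (Mir5103, chr1:34433121-34433199, minus strand) was detected on no high-active array (not well above background), with log2 signals of 3.14, 3.46, 3.82 and 3.47 there against 4.66, 4.69 and 4.08 in low-active mice. Its signal in low-active mice was at least 2.01-fold that in high-active mice (adjusted p = 0.0482). It too entered the test only through the strain where it was brighter, its adjusted p was 0.25 with no filter, and the call held under 3 of 19 alternatives that measured it. miR-134-5p, which limits the size of dendritic spines through Limk1 (Mir134, chr12:109734139-109734209, plus strand), had 3.78, 3.87, 4.14 and 3.83 against 4.46, 4.70 and 4.47. Its difference of -0.64 (SE 0.140, adjusted p = 0.0482) passed under 3 of 24 alternatives, and leaving out any of mice 223, 224, 227, 194, 195 and 197 ended the call.

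miR-338-3p stood just outside it. This miRNA comes from the span of Aatk (Mir338, chr11:120014765-120014862, minus strand) and promotes oligodendrocyte differentiation. The log2 signal was 10.95, 10.71, 10.59 and 10.83 in high-active mice and 9.84, 9.83 and 10.33 in low-active mice, with no overlap. The difference of 0.76 (SE 0.170) had an adjusted p of 0.0505, and passed under 8 of 25 alternatives, among them the reading by the brightest probe (0.72, adjusted p = 0.0157) and the fit without mouse 197 (0.93, adjusted p = 0.0325). Its other arm, miR-338-5p, differed by 0.11 (adjusted p = 0.742). The array's miR-219-5p and miR-219-2-3p, also of oligodendrocytes, differed by 0.15 (adjusted p = 0.909) and 0.17 (adjusted p = 0.527).

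**Figure D2:**
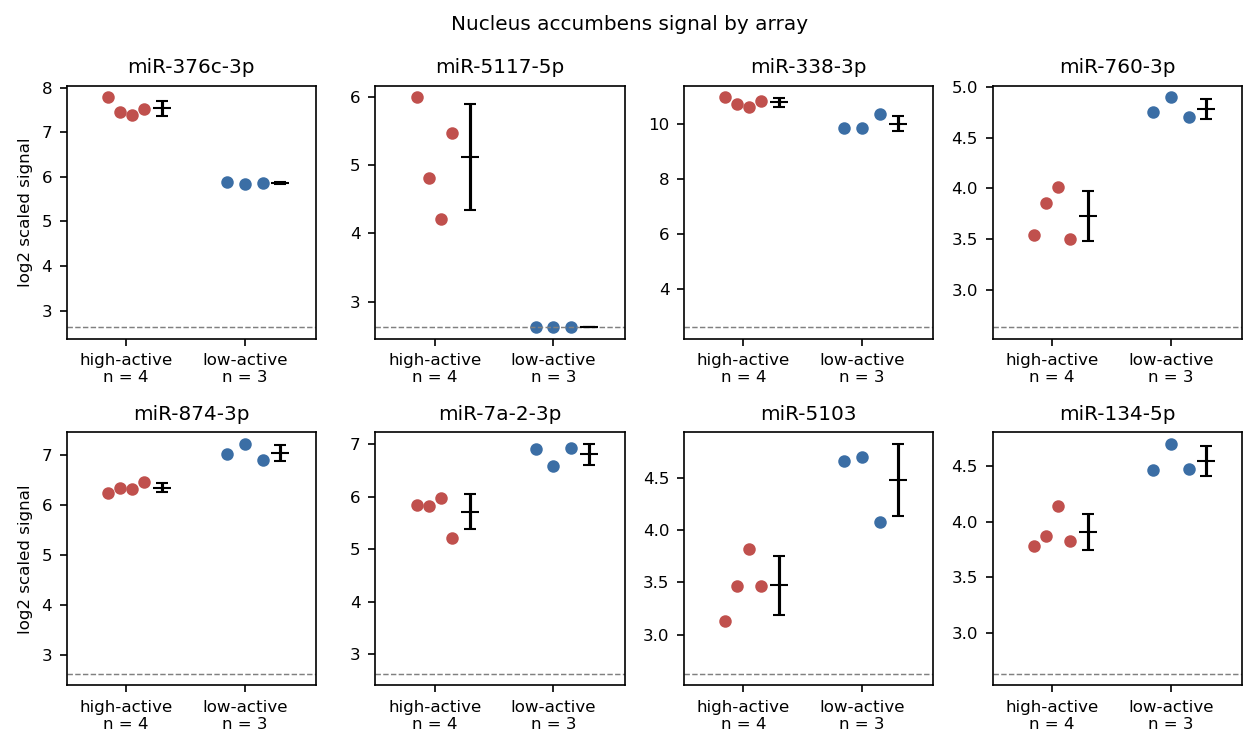
Log2 scaled signal of 8 miRNAs on each array of the nucleus accumbens (points, high-active red, low-active blue), with the mean and SD of each strain (black) and the floor (dashed), each panel on its own scale. No high-active point overlaps a low-active one in any panel, and miR-5117-5p is at the floor of 2.63 in all 3 low-active mice. The 8 were picked by their result in the test of this same difference, so the lack of overlap is no support. Of all miRNAs tested 19.7% did not overlap. miR-5117-5p and miR-5103 met the detection filter only through the strain where they were brighter.

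Most of the brightest miRNAs of the accumbens differed by less than 0.5 between the strains, and more of them were positive than negative. Of the 12, 50 and 100 brightest, 10, 35 and 63 were positive, beside 197 of all 386 miRNAs tested. None of the 12 brightest passed limma's test or had an unadjusted p under 0.05, their differences had a median of 0.15 and a largest size of 0.45, and for 11 of 12 the 95% confidence interval lay within 1 log2 unit of 0. These intervals bound a difference and do not show that there was none. Of the 50 brightest none passed (8 with an unadjusted p under 0.05), against 4.4% called of all miRNAs tested, and 46 differed by less than 0.5. Of the 100 brightest 1 passed, miR-342-3p, and 88 differed by less than 0.5.

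miR-128-3p, a brain miRNA that restrains neuronal excitability, had log2 signals of 15.46, 15.01, 15.31 and 15.58 in high-active mice and 15.15, 15.39 and 14.56 in low-active mice. The strains overlapped, and the difference of 0.31 had a 95% confidence interval of -0.23 to 0.85. miR-124-3p, which holds down non-neuronal transcripts in neurons, had 14.56, 14.35, 14.18 and 14.48 against 14.15, 14.23 and 14.02. Its difference was 0.26 (-0.07 to 0.58). miR-9-5p, a regulator of neural progenitors, differed by 0.40 (-0.09 to 0.89), with values of 14.47, 13.91, 13.81 and 14.50 against 13.63, 13.87 and 13.80. The remaining bright miRNAs, miR-125b-5p (-0.09), miR-29a-3p (0.11), miR-29c-3p (0.29), miR-26a-5p (0.29) and the let-7 members, lay between -0.09 and 0.29. miR-3963 had the widest spread of the 12, at -0.45 (-1.27 to 0.37).

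The neuronal list as a whole leaned to neither strain. Of its 28 members 27 were tested, none passed in limma (4 had an unadjusted p under 0.05), 15 were positive and 12 negative, beside 4.4% called and 20.2% with an unadjusted p under 0.05 among all miRNAs tested, and their median of 0.04 lay beside 0.01 for all 386 miRNAs. The extremes were miR-433-3p (-0.44) and miR-9-5p (0.40). miR-132-3p and miR-212-3p, induced by neuronal activity through CREB, differed by 0.32 (adjusted p = 0.443) and 0.13 (adjusted p = 0.652). Of 9 tested miRNAs with known roles in reward or drug response, none passed (2 unadjusted), with a median of 0.13, and miR-181a-5p had 0.51 (adjusted p = 0.223).

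Several families of widely expressed miRNAs leaned to high-active mice without any member past the test. Of all 386 miRNAs tested, 197 were positive and 20.2% had an unadjusted p under 0.05. Of miRNAs with less than 50% G and C, 66.7% to 71.7% were positive, depending on the bin. All 5 miRNAs of the miR-30 list were positive, from 0.20 for miR-30d-5p to 0.40 for miR-30c-5p, with a median of 0.38 (2 unadjusted p under 0.05). miR-384-5p, which has the miR-30 seed but is not on that list, differed by -0.03 (adjusted p = 0.928). All 5 tested miRNAs of the miR-23/24/27 clusters were positive, with a median of 0.34 (2 unadjusted), and 7 of 8 tested of the miR-17/miR-92 cluster and its paralogs, with a median of 0.28 (1 unadjusted). Of the 9 let-7 miRNAs 8 were positive, but their median was 0.11 and none had an unadjusted p under 0.05. The medians of the miR-30, miR-23/24/27 and miR-17/miR-92 lists stayed positive under all 25 alternatives, but their lowest values were 0.16, 0.16 and 0.08. Among members with a sequence the medians were 0.38, 0.30 and 0.28. Removal of each array's GC slope took these to 0.18, 0.20 and 0.09. With the same step over the miRNAs detected on all 7 arrays they were 0.32, 0.32 and 0.20. The median of let-7 turned under 3.

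In the miR-15/16 family, whose shared seed AGCAGCA represses Bcl2 and cyclins, 5 of 6 members were positive with a median of 0.51 (4 unadjusted p under 0.05), and 4 of the 6 did not overlap between strains, beside 20.2% and 19.7% of all miRNAs tested. Its median ranged from 0.27 to 0.79 over 25 alternatives. miR-15a-5p had log2 signals of 10.704, 10.09, 10.17 and 10.47 in high-active mice against 9.94, 9.74 and 9.71 in low-active mice, a difference of 0.56 (adjusted p = 0.138). miR-195a-5p differed by 0.62 (adjusted p = 0.156), its cluster partner miR-497-5p by 0.62 (adjusted p = 0.124) and miR-16-5p by 0.45 (adjusted p = 0.223). miR-15b-5p, with the same seed, differed by -0.15 (adjusted p = 0.742). None of the 6 passed.

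The list of miR-296 and miR-298, from the imprinted Gnas region, leaned the other way. miR-298-5p had -0.98 (adjusted p = 0.055), with detection on 1 of 4 high-active arrays, and miR-296-5p had -0.47 (adjusted p = 0.0941). With outlier spots kept miR-298-5p turned to 0.24 (adjusted p = 0.931) and the median of the pair went from -0.72 to -0.10. The 6 tested miRNAs of the X-linked miR-500/miR-532 cluster had a median of -0.29 with 4 negative, and none passed (2 unadjusted).

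**Figure D3:**
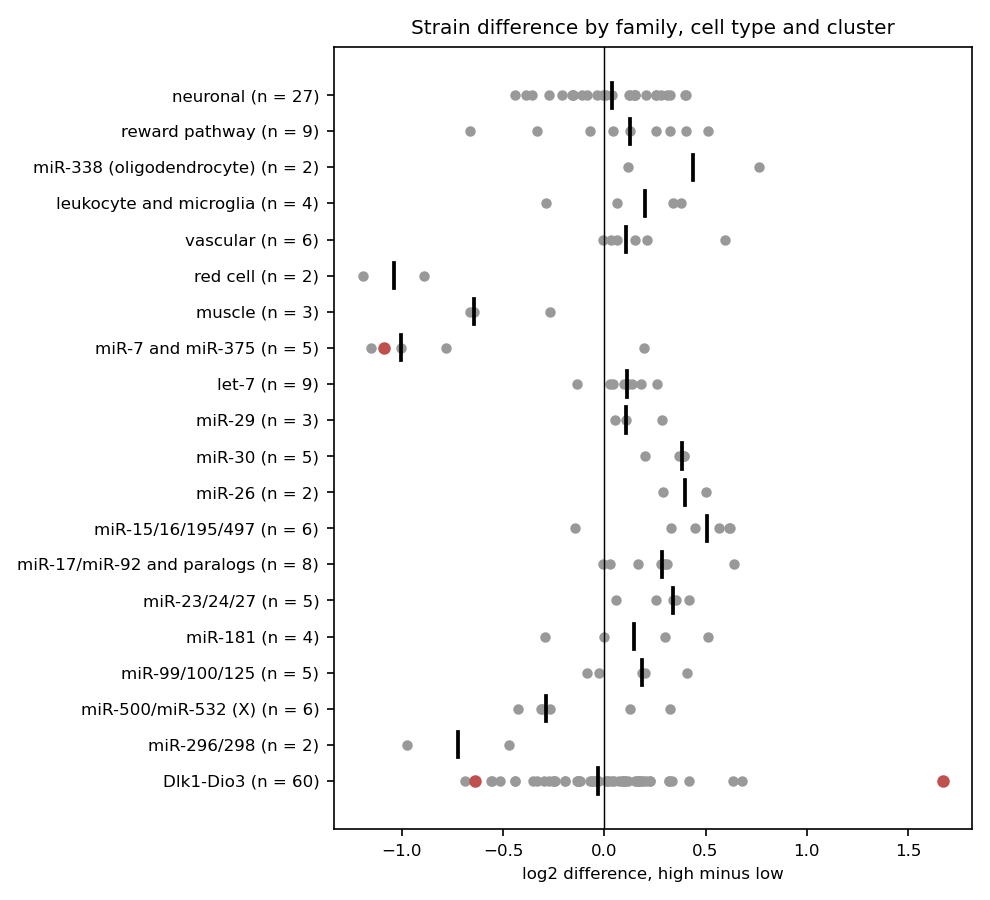
Log2 difference (high minus low) of the tested members of 20 lists of miRNAs, 1 point each, with the list's median as a black bar and members past the test in red. The neuronal and Dlk1-Dio3 medians are at 0.04 and -0.03, the miR-30 and miR-15/16 medians at 0.38 and 0.51, and the red points are miR-7a-2-3p, miR-134-5p and miR-376c-3p.

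The Dlk1-Dio3 domain on chromosome 12 held 60 tested of 113 miRNAs, and its members were split in direction. 1 passed as higher (miR-376c-3p) and 1 as lower (miR-134-5p), 29 were positive and 31 negative, and the median was -0.03. The share called, 3.33%, was close to the 4.4% of all miRNAs tested. Its hairpins form groups of neighbours no more than 10 kb apart. The group with both of these miRNAs (chr12:109709060-109747960, 38 tested) had a median of 0.04, and the group upstream of it (chr12:109563692-109595388, 16 tested) had -0.10 with none past the test. The brightest members, miR-127-3p and miR-434-3p, differed by 0.01 (adjusted p = 0.981) and -0.13 (adjusted p = 0.581). miR-376a-3p and miR-376b-3p, from neighbouring hairpins of the miR-376 family, differed by -0.04 (adjusted p = 0.945) and 0.23 (adjusted p = 0.511), beside 1.67 for miR-376c-3p. Over the 66 hairpins of the whole table with both arms tested, the arms had the same sign for 44 and opposite signs for 22, with a median gap of 0.24 between them. Their correlation of 0.678 describes 66 hairpins measured on the same arrays.

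The differences varied with the base composition of the miRNAs. A sequence was at hand for 313 of 386 tested miRNAs (81.1%). Over them the difference fell with the share of G and C (Pearson's r -0.284, Spearman's rho -0.459, across miRNAs of the same arrays, which are not independent). Of 81 miRNAs with 55% or more G and C only 14 (17.3%) were higher in high-active mice, with a median of -0.31, while the bins below held 61.9% to 71.7% higher and medians of 0.05 to 0.19. The relation was negative in the brighter (r -0.219, 156 miRNAs) and the dimmer (r -0.331, 157 miRNAs) part of the table. Across 22 alternatives rho ranged from -0.516 to -0.29.

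By array, the 81 GC-rich miRNAs had a median deviation from their mean over all arrays of -0.23, -0.22, -0.02 and 0.03 in high-active mice 223, 224, 225 and 227, and of 0.21, 0.27 and 0.05 in low-active mice 194, 195 and 197. The slope of log2 signal on GC was steepest downwards on the array of mouse 223, at -0.257 per 10 points of GC, and steepest upwards on those of mice 194 and 195, at 0.157 and 0.207. Mouse 197 had -0.0346, between the high-active arrays, so the strains overlapped. The slopes differed by -0.192 between strains (exact permutation test, two-sided p = 0.143, where 0.0286 is the smallest p of 35 regroupings). With each array's GC slope removed, 3 of the 313 miRNAs passed in limma, against 4 of the same 313 without that step. miR-760-3p, at 70% GC, went from -1.06 (adjusted p = 0.0205) to -0.77 (adjusted p = 0.0834), and miR-5103 from -1.004 to -0.81 (adjusted p = 0.0834 after the step). miR-7a-2-3p, at 54.5% GC, had -1.09 before and -1.10 after it. miR-7b-5p, at 33.3% GC, went from -0.78 to -1.20 (adjusted p = 0.0834). With the same step over the miRNAs detected on all 7 arrays, miR-7b-5p (-0.97), miR-338-3p (0.67) and miR-672-5p (-0.66) passed, each at an adjusted p of 0.0446. Among the GC-rich miRNAs shown above, miR-326-3p and miR-330-5p, which share the seed CUCUGGG, differed by -0.51 and -0.44. miR-370-3p of the Dlk1-Dio3 domain differed by -0.52, and all of these were without overlap between the strains and none past the test. They were picked as lower after their values were seen, so their direction and lack of overlap are no support. Of the 81 GC-rich miRNAs 67 were lower, and 19.7% of all miRNAs tested did not overlap.

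**Figure D4:**
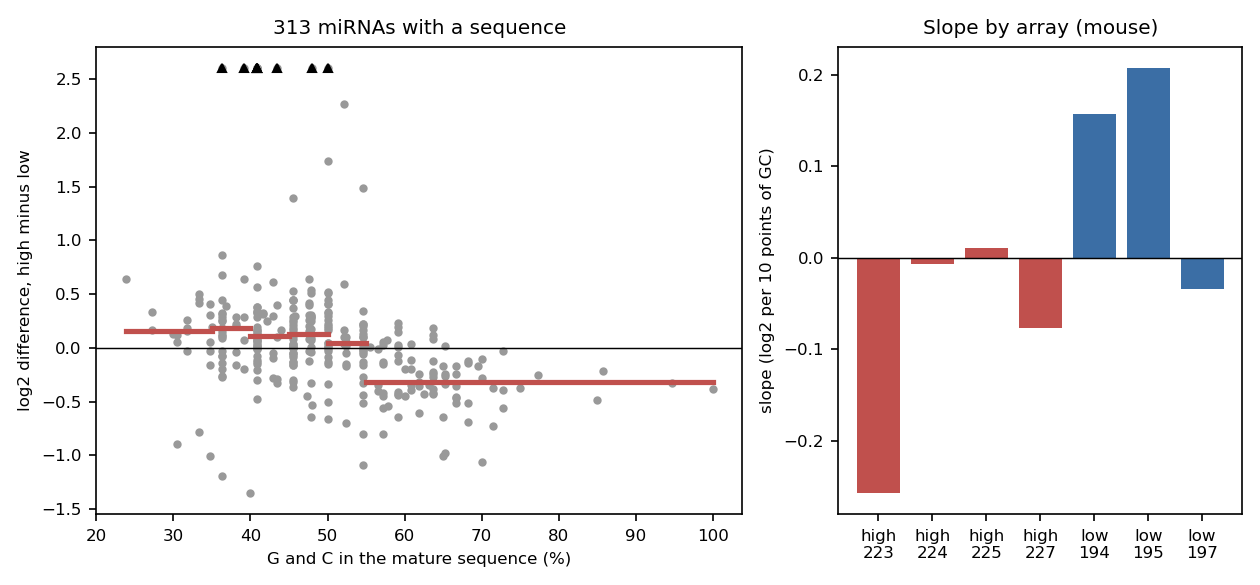
Left, log2 difference (high minus low) of 313 miRNAs against the percent of G and C in the mature sequence, with the median of each GC bin in red and values above 2.6 drawn as triangles at that height. Right, slope of log2 signal on GC for each array (high-active red, low-active blue): the median is -0.31 in the bin of 55% or more, and the slopes run from -0.257 (mouse 223) to 0.207 (mouse 195).

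miRNAs of other cell types varied between single mice as well as between strains, and their part in the differences above was not tested. The widest strain differences in the table belonged to the miR-200 family, which is typical of epithelia and olfactory neurons, and to the miR-183/miR-96/miR-182 cluster of sensory cells, and none of these passed in limma with all 7 arrays. Without mouse 224, 2 of the 7 miR-200 miRNAs passed, beside 19 of 380 miRNAs tested in that fit. The 2 were miR-200a-5p (2.02, adjusted p = 0.00503) and miR-200b-5p (2.47, adjusted p = 0.0253), and the median of the 7 rose from 3.46 to 5.23. Mouse 224 was the high-active mouse with the low miR-200 signal, so calls made by leaving it out are no independent support. Without mouse 197 the median of the 7 was 5.38 and none passed. miR-200a-3p had log2 signals of 12.82, 5.63, 11.39 and 12.34 in high-active mice and 2.63, 2.63 and 10.68 in low-active mice. It was bright in mice 223, 225, 227 and 197, dim in mouse 224 and at the floor in mice 194 and 195, so the strains overlapped, at a difference of 5.23 (SE 2.44, adjusted p = 0.298). miR-96-5p followed the same mice, with 11.33, 4.30, 9.67 and 10.64 against 2.65, 2.63 and 9.32. The summed signal of the 7 miR-200 miRNAs was 14.22, 7.25, 13.03 and 14.00 in high-active mice and 5.44, 5.70 and 12.26 in low-active mice on the log2 scale, and of these 7 only 1 had an unadjusted p under 0.05.

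The red cell miRNA miR-451a had 12.25, 10.82, 11.66 and 11.22 in high-active mice against 13.48, 11.78 and 12.78 in low-active mice, a difference of -1.19 (adjusted p = 0.207) with overlap. The muscle miRNAs were raised on the array of mouse 197 alone. miR-133a-3p had 8.61 there and 6.12 to 6.56 on the other 6 arrays, and the summed signal of 3 muscle miRNAs was 10.52 against 8.03 to 8.51. Lists for leukocytes and microglia (4 tested, median 0.20), vessels (6 tested, 0.11) and choroid plexus (4 tested, 0.03) had no member past the test or with an unadjusted p under 0.05, and none of the 4 Hox-linked miRNAs of hindbrain was detected on enough arrays to be tested. Without mouse 224 the test called 19 miRNAs and without mouse 197 it called 10, against 17 with all arrays.

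**Figure D5:**
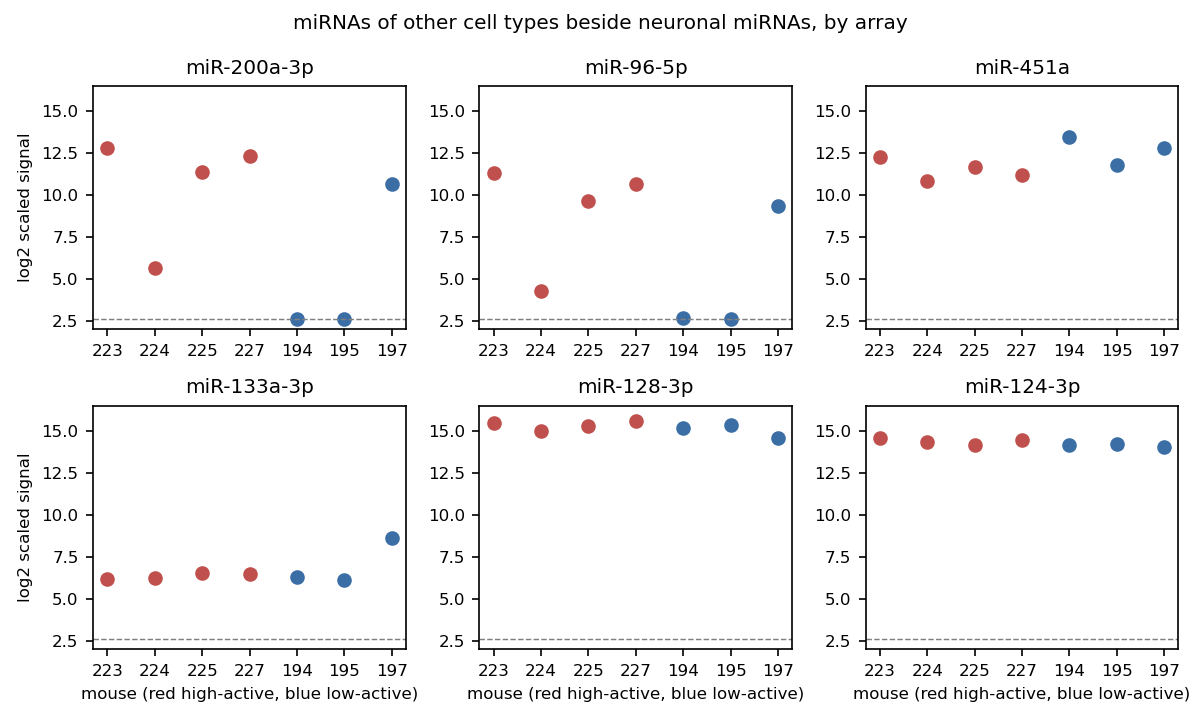
Log2 scaled signal of 6 miRNAs on each accumbens array, by mouse number (high-active red, low-active blue; floor dashed). miR-200a-3p and miR-96-5p are bright in mice 223, 225, 227 and 197 and low in mice 224, 194 and 195, miR-133a-3p is raised in mouse 197, and miR-128-3p and miR-124-3p stay between 14.0 and 15.6.

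Whether a strain difference of the accumbens departed from that in muscle was tested as an interaction in limma over all 19 arrays, with mouse as a random block, for the 253 miRNAs measured in all 3 tissues. It passed for 4 (1.58%). Each muscle's strain difference rests on few arrays of 1 strain, as given at the start. miR-203-3p, a miRNA of skin and other epithelia, differed by 0.00 in the accumbens, -1.05 in the soleus and -2.43 in the EDL, so that the accumbens stood 1.75 above the muscles (adjusted p = 0.00487). miR-296-5p went the other way, with -0.48 in the accumbens, 1.11 in the soleus and 0.24 in the EDL (-1.15 in the comparison, adjusted p = 0.00487). miR-3107-5p, from the span of Ank1, had -1.19, 0.38 and 0.19 (-1.48, adjusted p = 0.0488), and 1 miRNA of the miR-467 family also passed. miR-376c-3p was higher in high-active mice in each tissue, by 1.68, 0.55 and 1.03, and its departure of 0.89 did not pass (adjusted p = 0.0662).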

How the data were processed

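Single-dye Agilent mouse miRNA arrays were used. The deposited scanner files hold background-subtracted spot intensities written by the authors' Feature Extraction 10.7.1.1, not normalized between arrays; the deposited table of the series holds log2 values normalized per array by the authors, with the percentile and any centring unknown (column medians -0.363 to 0.203), and was used as an alternative. Arrays that the authors removed for poor signal were not analysed here.

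Control and outlier spots (4.04% to 7.03% per array) were left out, no spot was saturated, and the intensities of the rest were averaged per probe and then over a miRNA's probes. A probe counted as detected where a share above 0.5 of its spots passed the software's background test. Arrays were scaled to their 75th percentile over 313 miRNAs detected on all 7, floored at 6.19 and taken to log2. limma 3.58.1 in R 4.3.3 (lmFit, eBayes, Benjamini-Hochberg, adjusted p under 0.05; version 1.17.8 of the package data.table, jsonlite 2.0.0) tested the 386 mouse miRNAs detected on at least 3 arrays. A bound ("at least") divides the brighter strain's mean by that of the dimmer one, each dim array entering at no less than its lowest detected signal. The procedure was tested on simulated data. Alternatives covered probe choice, scaling, background, floor, filter, slide and leaving out each mouse. The removal of each array's GC slope was added after seeing the data, as was the choice of the median spot signal for the normexp background, since no mean signal is among the columns. The number of arrays limits the precision.

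The text names every miRNA past the test, except that miR-342 and the miR-669, miR-467, miR-466 and miR-297 families are given mainly by counts. It also covers the 12 brightest, with their let-7 members as a group, and the 5 smallest p between tissues. The 3 brightest members of each list and cluster were examined, but only part of them are named. Several lists are not described. Some of these had medians close to that of all miRNAs tested and some had medians above it. The lists described are therefore a selection. miR-375-3p, miR-7b-3p, miR-497-5p, miR-15b-5p, miR-30d-5p, miR-384-5p, miR-132-3p, miR-212-3p, miR-181a-5p, miR-433-3p, miR-376a-3p, miR-376b-3p, miR-326-3p, miR-330-5p, miR-370-3p, miR-672-5p, miR-200a-5p, miR-200b-5p and the miR-219 miRNAs were named after their values were seen. The miRNAs and lists were chosen with earlier results of these data known. RefSeq names matched 867 of the array's miRNAs.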

Additional observations from a re-analysis of the deposited data

Results flagged for a closer look

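In 5 of 105 groups of 4 high-active arrays tested (chance gives about 1 in 20), 1 array lay far from the other 3. For miR-429-3p it was that of mouse 224, at a log2 signal of 5.33 against 11.2 to 12.3. miR-200b-3p had 5.26 there against 11.3 to 12.3, miR-183-5p had 2.66 against 9.26 to 9.81, and miR-182-5p had 2.63 against 8.58 to 9.59. For miR-421-3p it was mouse 223, at 4.29 against 3.89 to 3.94.

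The strain difference of 4 miRNAs differed between the nucleus accumbens and the muscles by the interaction test in limma: miR-203-3p by 1.75, miR-467b-5p by 1.05, miR-296-5p by -1.15 and miR-3107-5p by -1.48.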

How the results depend on the processing

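The 17 calls in the accumbens (15 at 2-fold or more) became 4 (4) without scaling, 8 (1) with the normexp background and 7 (6) over miRNAs detected on all 7 arrays. Among miRNAs with a known sequence 4 (4) passed, 3 (3) after removal of each array's GC slope and 5 (2) after it among those detected on all arrays. Leaving out 1 mouse gave 7 to 19 calls, and 7 to 18 at 2-fold or more. The low-active mice moved them most, with 7 (7) calls without mouse 194, 7 (7) without mouse 195 and 10 (9) without mouse 197. The remaining alternatives gave 12 to 22. Scaling over all miRNAs moved the median of all differences to 0.13 and the split to 6 higher and 8 lower, no scaling moved them to 0.291 and to 3 and 1, normexp to -0.107 and to 3 and 5, and the authors' table, with 568 entries, to -0.302 and to 5 and 7. The direction of miR-376c-3p reversed with the software's signal per miRNA (-1.04), which departs from the sum of its probe totals on the low-active arrays. The cause of the other changes was not tested. Fewer samples and fewer miRNAs were in the fits without a mouse and with the stricter filter.

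No arrays of the strain comparison are paired. Between tissues, the 4 miRNAs past the interaction became 3 without the mouse as a replicate block and 2 when all 19 arrays were scaled together.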
